A study of Mus musculus with 10 samples.

Results

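Solute carrier transporters of mouse hepatocytes were described on oligonucleotide arrays as the probe sets whose platform annotation gives exactly 1 gene symbol, beginning with Slc and a digit, other than Slc2a1 and Slc2a3, and whose mean intensity over all 10 arrays was at least 50. The rule gave 104 of the 12488 probe sets, for 93 genes of 30 families. The members were chosen by their mean intensity, so their level is no finding, while the comparisons between groups were not part of the rule. A further 78 solute carrier probe sets, of 182 without Slc2a1 and Slc2a3, were dimmer than the limit and are not described. Just inside it lay Slc6a18 at a mean of 50.1, Slc7a9 at 52.0 and Slc7a7 at 54.4, and just outside it Slc17a1 at 49.2, a Slc29a1 probe set at 47.6 and Slc12a5 at 47.4. Slc4a1ap, Slc9a3r1 and Slc9a3r2 met the rule by name but encode proteins that bind carriers and are no carriers themselves, and 11 genes had 2 probe sets each.

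Total RNA of hepatocytes was hybridised, 1 array per sample, in 4 groups. In normoxia, 2 samples were untreated and 2 had received adeno treatment. In hypoxia, 3 samples had received adeno treatment and 3 samples were labelled HIF-1alpha null. The titles of the hypoxic adeno samples state no genotype, and these samples are called wild type here. There was no normoxic null group. The labels do not give the adeno vector, the way HIF-1alpha was removed, whether the null cells also received adeno, the genotype of the normoxic cells, or the oxygen level and time. Nothing states that arrays of a group came from separate cultures, so p-values measure the spread between these samples, which may be technical.

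Solute carriers move nutrients, ions and metabolites across the plasma membrane and the membranes of organelles. In hepatocytes they take up bile acids, amino acids, glucose and metals, pass glucose 6-phosphate into the endoplasmic reticulum for glucose release, and carry ornithine, carnitine esters and nucleotides into mitochondria. When oxygen is low, HIF-1alpha is stabilised and, with its partner subunit, binds DNA at short core letters such as ACGTG. Glucose carriers are among its classical target genes.

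Over the 7453 probe sets tested, arrays correlated at r of 0.894 to 0.970. The labels number the samples 1 to 3. Between hypoxic arrays of the same number, deviations from group means correlated at 0.541 to 0.677. Where a normoxic array took part, the same number gave only 0.103 to 0.378, and different numbers reached 0.253. Each comparison is given without and, where it changes the call, with the number as a replicate block in the fit. The number 3 arrays stood apart among the hypoxic samples: the 18S ribosomal control read a log2 level of 12.33 and 12.18 there, against 7.38 to 8.97 on the other hypoxic arrays. Among the normoxic arrays the adeno number 2 array stood apart, at 10.25, against 5.98 to 7.08 on the untreated and the adeno number 1 arrays. No normoxic array has the number 3. Of 18 hepatocyte marker probe sets 17 were bright enough to be tested, with albumin at 8039 to 13761 and Ttr at 577.6 to 1299.3. Collagen genes were also bright, with Col1a1 at 851.9 to 3873.2 and Col1a2 at 528.5 to 1714.3 on their brighter probe sets. No marker probe set of another cell type was at 0 on all arrays, though 4 of 19 macrophage and 4 of 11 lymphocyte ones were below 10 throughout. The Hif1a probe sets were not lower on the null arrays: 98628_f_at read 1647.1, 1010.5 and 850.0 there and 961.8, 703.2 and 711.2 on the hypoxic wild-type arrays. Where these probe sets lie relative to the part removed is unknown here, so they do not check the label, and the null arrays are called so by label only.

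Folds below are on the scale of log2(intensity + 4.7), and adjusted p-values are from limma with Benjamini-Hochberg adjustment over the 7453 probe sets, 2-sided, with a threshold of 0.05. The widest comparison set the 6 hypoxic arrays against the 4 normoxic arrays, as the mean of the 2 hypoxic group means minus the mean of the 2 normoxic ones. It joins genotype and adeno treatment and reuses the arrays of the narrower comparisons.

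In that comparison the phosphate carrier Slc20a1 rose and the copper carrier Slc31a1 fell, and no other solute carrier passed the threshold without the block. They were 1 of 104 probe sets higher and 1 of 104 lower, where 0.926 percent of all tested probe sets were called higher and 0.51 percent lower. With the replicate block, 9 of 104 were higher (8.65 percent, against 5.77 percent of all tested) and 13 of 104 lower (12.5 percent, against 7.35 percent). By class, the higher calls with the block were 3 of amino acid carriers, 2 of nucleotide sugar carriers and 1 each of phosphate, zinc, and potassium and chloride carriers, and Slc66a2. The lower calls were 4 of SLC25 carriers, 2 each of bile acid and fatty acid carriers, and 1 each of copper, zinc, nucleotide sugar, organic ion and glucose 6-phosphate carriers. The median difference over the 104 probe sets was 0.02 on the log2 scale, against 0.00 over all tested, so their differences lay on both sides. At an unadjusted p under 0.05, limma without the block had 10 of 104 higher and 8 lower, against 554 and 585 of 7453.

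**Figure D1:**
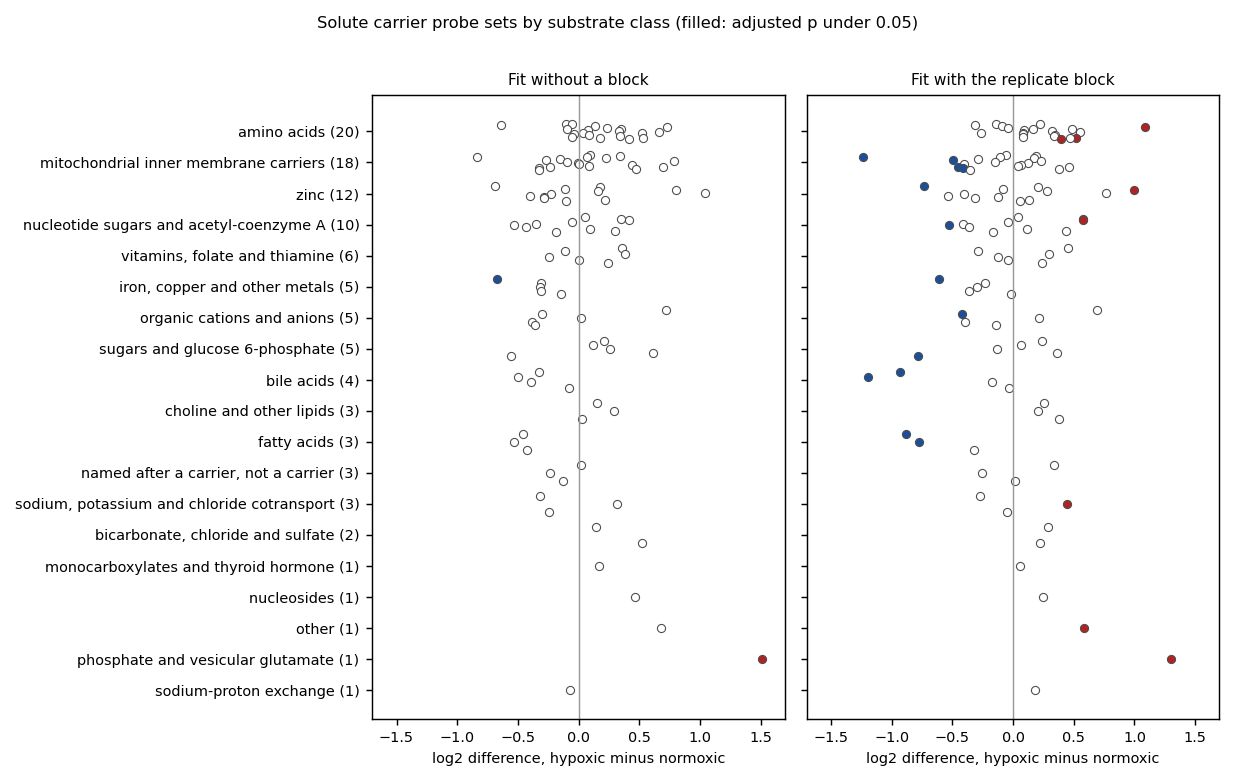
Differences between hypoxic and normoxic arrays (log2 scale, horizontal axis) of the 104 solute carrier probe sets, each a point, by substrate class with the number of probe sets in brackets, fitted without a block (left) and with the replicate block (right). Filled points passed an adjusted p of 0.05 in limma: 1 higher (red) and 1 lower (blue) on the left, 9 and 13 on the right.

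Slc20a1 encodes a sodium-dependent phosphate carrier of the plasma membrane. Slc20a1 (103065_at) read 170.3 and 226.3 on the untreated normoxic arrays, 217.2 and 146.9 on the normoxic adeno arrays, 398.0, 460.7 and 576.9 on the hypoxic wild-type arrays, and 505.0, 521.7 and 918.3 on the null arrays. All 6 hypoxic arrays lay above all 4 normoxic arrays, and the number 3 null array was the highest. The difference was 1.51 on the log2 scale (SE 0.21), or 2.85-fold, with a limma adjusted p of 0.00799. With the block it was 1.30 (SE 0.16, limma adjusted p 0.00129), and it passed with each of the 10 arrays left out in turn. Without the block, leaving out the untreated number 1 array gave a limma adjusted p of 0.0556 and leaving out the adeno number 2 array 0.0641.

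Each genotype was also set against the same normoxic adeno arrays. In wild-type cells Slc20a1 was higher by 1.38 (SE 0.30), which did not pass without the block (limma adjusted p 0.161) and passed with it (1.17, 0.0244). In null cells it rose by 1.78 (SE 0.30), or 3.42-fold, with a limma adjusted p of 0.0416 (1.57 and 0.00418 with the block). Both of these values share their controls. The null call without the block was lost with any of the 5 arrays left out, at limma adjusted p-values of 0.0540 (null number 1) to 0.615 (adeno number 2); with the block only the adeno number 2 array ended it (0.0632). Null and wild-type hypoxic arrays differed by 0.39 (SE 0.27, limma adjusted p 0.999), and their ranges overlapped.

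Slc31a1 encodes the high-affinity copper uptake carrier. Slc31a1 (101877_at) read 590.7 and 625.6 untreated, 564.3 and 529.7 with adeno, 379.5, 372.9 and 321.1 in hypoxic wild-type cells and 378.4, 377.1 and 335.7 in null cells. All 6 hypoxic arrays lay below all 4 normoxic ones, and the ranges of both hypoxic genotypes nearly coincided. It fell by 0.67 on the log2 scale (SE 0.11, fold 0.627, limma adjusted p 0.0209), and with the block by 0.61 (limma adjusted p 0.00470), which held with each of the 10 arrays left out. Without the block the call was lost when untreated 1 (0.0827), untreated 2 (0.138), adeno 1 (0.0970), adeno 2 (0.103), wild type 3 (0.0512) or null 2 (0.0574) was left out, each a limma adjusted p. A second probe set of the gene, 103845_at, read 276.6 to 368.9 on normoxic and 222.9 to 308.9 on hypoxic arrays, which overlapped. Its difference of -0.32 did not pass without the block (limma adjusted p 0.277) or with it (0.162).

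**Figure D2:**
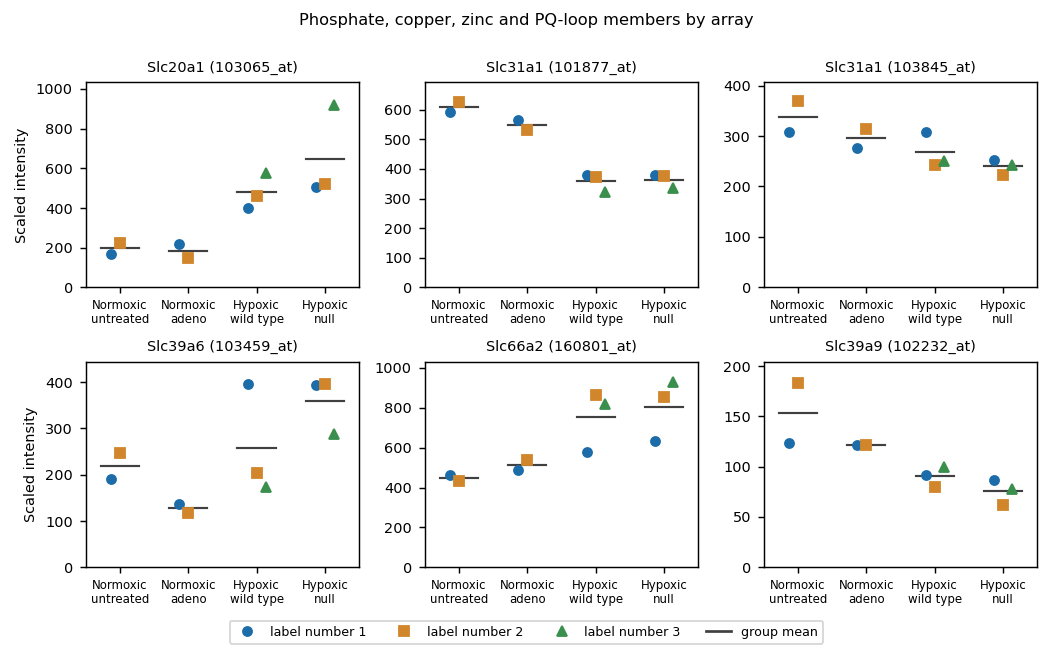
Scaled intensity (vertical axis, linear) of Slc20a1, both Slc31a1 probe sets, Slc39a6, Slc66a2 and Slc39a9 in the 4 groups, 1 point per array by label number, with bars at group means. The hypoxic arrays of Slc20a1 (398.0 to 918.3) lie above all normoxic arrays (146.9 to 226.3), and those of Slc31a1 101877_at lie below all of them.

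Only 5 probe sets separated all hypoxic from all normoxic arrays: Slc20a1 and Slc66a2 upward, Slc31a1 101877_at, Slc35a1 and Slc39a9 downward. That is 2 and 3 of 104, against 2.63 and 2.8 percent of all tested. Slc66a2, a PQ-loop protein, read 432.7 to 536.6 on normoxic arrays and 578.0 to 928.0 on hypoxic arrays, with a difference of 0.68 (SE 0.16, limma adjusted p 0.0773; with the block 0.59 and 0.0145). Its call without the block appeared when wild type 1 (0.0411) or null 1 (0.0434) was left out, and its call with the block was lost without untreated 2 (0.0641), adeno 2 (0.0696), wild type 2 (0.0615) or null 2 (0.0649). Slc39a9, a zinc carrier, read 121.2 to 182.8 normoxic and 62.2 to 99.3 hypoxic, a difference of -0.69 (SE 0.16, limma adjusted p 0.0774; with the block -0.73 and 0.0261). With the block it was lost without untreated 2 (0.123), adeno 1 (0.0701), adeno 2 (0.0904), wild type 2 (0.0889) or null 2 (0.0996). Slc35a1, which carries CMP-sialic acid into the Golgi, differed by -0.35 and did not pass in either fit (limma adjusted p 0.258 and 0.103).

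Among the 12 zinc carrier probe sets of 10 genes, 5 had positive and 7 negative differences, with a median of -0.11. With the block 1 was higher, Slc39a6, and 1 lower, Slc39a9. Slc39a6, a zinc importer, read 190.9 and 247.0 untreated, 137.3 and 117.2 with adeno, 396.3, 203.8 and 173.9 in hypoxic wild-type cells and 394.7, 396.5 and 287.5 in null cells. The null arrays lay above all normoxic arrays, whereas the wild-type arrays overlapped the untreated ones. Its difference was 0.80 (limma adjusted p 0.138) without and 0.99 (SE 0.19, limma adjusted p 0.00955) with the block, which held with each of the 10 arrays left out. Against normoxic adeno cells alone the null difference was 1.45 (limma adjusted p 0.132), or 1.65 (0.00797) with the block, and the wild-type difference 0.90 (0.488), or 1.10 (0.0571). That null call was lost without adeno 1 (0.0686), adeno 2 (0.0945) or null 2 (0.0530). The zinc exporter Slc30a1 read 43.8 to 58.8 normoxic and 58.2 to 202.9 hypoxic, with a difference of 1.04 that passed only without the null number 1 array (limma adjusted p 0.0434, against 0.156 on all arrays and 0.0673 with the block).

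The 5 probe sets of iron, copper and other metal carriers all had negative differences, with a median of -0.31. Beside Slc31a1, the iron carrier Slc11a2 read 89.0 to 150.2 normoxic and 70.9 to 117.1 hypoxic on 102642_at, and differed by -0.31 on each of its probe sets (limma adjusted p 0.470 and 0.553). The haem carrier Slc48a1 differed by -0.15 (limma adjusted p 0.690).

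The 20 probe sets of the amino acid class leaned upward: 14 differences were positive and 6 negative, with a median of 0.16, against 0.00 over all tested. The class is set by family number and also holds carriers of other substrates, such as the creatine carrier Slc6a8. In limma without the block 0 of 20 passed, with 3 higher and 0 lower at an unadjusted p under 0.05. With the block 3 were higher, Slc7a5, Slc3a2 and Slc6a6, and none lower. Slc7a5 is the light chain and Slc3a2 the heavy chain of the exchanger that takes up leucine and other large neutral amino acids, and Slc6a6 takes up taurine.

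Slc7a5 (104221_at) read 311.5 and 343.1 untreated, 469.7 and 390.1 with adeno, 846.2, 841.1 and 331.5 in hypoxic wild-type cells and 824.1, 698.6 and 425.8 in null cells. The 4 hypoxic arrays numbered 1 and 2 lay above every normoxic array, whereas the number 3 arrays lay within the normoxic range. On all arrays the difference was 0.73 (SE 0.29, limma adjusted p 0.263). With the block it was 1.09 (SE 0.13, limma adjusted p 0.000998), and it passed with each of the 10 arrays left out. Without the number 3 arrays and without the block it was also 1.09 (limma adjusted p 0.00660). Against normoxic adeno cells it was 0.53 in wild-type and 0.54 in null cells without the block (limma adjusted p 0.824 and 0.713), and 0.89 and 0.90 with it (0.0297 and 0.0185). Of these block calls the wild-type one was lost without adeno 1 (0.108), adeno 2 (0.246), wild type 1 (0.106) or wild type 2 (0.134), and the null one without adeno 1 (0.0759) or adeno 2 (0.188).

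Slc3a2 (99133_at) read 1513.3 and 2156.1 untreated, 1460.8 and 1622.0 with adeno, 1971.1, 2530.0 and 2287.9 in hypoxic wild-type cells and 1933.5, 2418.9 and 2267.6 in null cells. Every hypoxic array lay above both adeno arrays, and the untreated number 2 array lay among the hypoxic ones. The difference was 0.41 (SE 0.14, limma adjusted p 0.191), or 0.40 (0.0181) with the block, which was lost without untreated 1 (0.0783), adeno 2 (0.0824), wild type 2 (0.0721) or null 2 (0.0668). Slc6a6 read 245.0 to 454.2 on normoxic and 194.1 to 633.5 on hypoxic arrays, with the number 3 arrays lowest in both hypoxic groups. It differed by 0.18 (limma adjusted p 0.843), or 0.52 (0.0183) with the block, and the block call was lost with 5 of the 10 arrays left out: both untreated (0.0521 and 0.0651), both adeno (0.0617 and 0.0622) and wild type 2 (0.0750).

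Other amino acid carriers did not pass in either fit. Slc38a2 and Slc38a4 take up small neutral amino acids. Slc38a2 read 186.8 to 378.5 normoxic and 190.2 to 319.7 hypoxic, with a difference of -0.03. Slc38a4 read 1307.6 to 2252.6 normoxic and 1307.1 to 2985.3 hypoxic, with a difference of 0.24 (-0.04 with the block). The glycine carrier Slc6a9 differed by 0.34 (limma adjusted p 0.406; 0.0544 with the block).

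The bile acid class is set by family number and holds 4 probe sets of 3 genes, 2 of them of Slc10a1, with Slc10a3 and Slc10a6. It had 4 of 4 negative differences (median -0.36) and the fatty acid class 3 of 3 (median -0.45). Limma without the block called 0 of 7, with 0 higher and 1 lower (Slc27a4) at an unadjusted p under 0.05. With the block, 2 of 4 (both probe sets of Slc10a1) and 2 of 3 were lower, all with the number 3 array highest in each hypoxic group.

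Slc10a1 takes up conjugated bile acids with sodium from the blood. Slc10a1 (100339_at) read 399.8 and 537.7 untreated, 348.9 and 506.4 with adeno, 156.9, 333.5 and 718.0 in hypoxic wild-type cells and 152.2, 345.7 and 921.1 in null cells. The hypoxic arrays numbered 1 and 2 lay below all normoxic arrays, and those numbered 3 above all of them. The difference was -0.33 (limma adjusted p 0.816) without and -0.93 (SE 0.15, limma adjusted p 0.00450) with the block. A second probe set, 100341_g_at, gave -0.50 (limma adjusted p 0.782) and -1.20 (0.00946). Both block calls held with each of the 10 arrays left out. Against normoxic adeno cells alone, 100339_at passed with the block in both genotypes, by -0.92 in wild-type cells (limma adjusted p 0.0488) and -0.80 in null cells (0.0489), and both calls were lost whichever of the 5 arrays was left out (0.0694 to 0.237 and 0.0700 to 0.251).

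Slc27a2 and Slc27a5 encode fatty acid transport proteins that also activate very long-chain fatty acids and bile acids. Slc27a2 read 195.7 and 410.0 untreated, 112.7 and 222.6 with adeno, 100.5, 202.1 and 341.7 in hypoxic wild-type cells and 79.0, 100.7 and 232.5 in null cells. Within number 1 and within number 2 both hypoxic arrays lay below both normoxic arrays, while the number 3 wild-type array lay above 3 of the 4 normoxic arrays. The difference was -0.45 (limma adjusted p 0.654), or -0.88 (SE 0.15, limma adjusted p 0.00527) with the block. Slc27a5 read 297.8 and 459.3 untreated, 255.5 and 396.5 with adeno, 182.8, 291.2 and 428.5 in hypoxic wild-type cells and 130.3, 223.7 and 259.2 in null cells. It too was lower within numbers 1 and 2, with its number 3 wild-type array above 3 of the 4 normoxic ones. The difference was -0.53 (limma adjusted p 0.423), or -0.77 (SE 0.11, limma adjusted p 0.00289) with the block. Both block calls held with each of the 10 arrays left out.

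Among the SLC25 family, carriers of the mitochondrial inner membrane except for the peroxisomal Slc25a17, 10 of 18 probe sets had positive and 8 negative differences, with a median of 0.04. Limma without the block called 0 of 18, with 1 higher and 1 lower at an unadjusted p under 0.05, and 4 were lower with the block. Slc25a15, which exchanges ornithine and citrulline for the urea cycle, read 3313.5 and 4296.5 untreated, 2554.9 and 3349.5 with adeno, 1223.7, 2594.1 and 3979.1 in hypoxic wild-type cells and 698.7, 1763.7 and 2593.6 in null cells. Within number 1 the mean hypoxic minus normoxic difference was -1.65, and within number 2 it was -0.83. Over all arrays it was -0.84 (SE 0.39, limma adjusted p 0.351), or -1.24 (SE 0.15, limma adjusted p 0.00144) with the block, which held with each of the 10 arrays left out. Against normoxic adeno cells the null arrays were lower by -1.38 with the block (limma adjusted p 0.00704, and 0.0778 without adeno 1).

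The other 3 were near the threshold. Slc25a20, the carnitine and acylcarnitine exchanger, gave -0.45 (limma adjusted p 0.0441) with the block, and Slc25a44, linked to branched-chain amino acids, -0.49 (0.0418). Both calls were lost whichever of the 10 arrays was left out, at 0.0525 to 0.151 and 0.0527 to 0.135. Slc25a17 gave -0.41 (limma adjusted p 0.0454) with the block and kept the call only without wild type 3 or null 3 (0.0583 to 0.160 without any of the other 8 arrays). The adenine nucleotide carriers Slc25a4 and Slc25a5, which export ATP from mitochondria, differed by -0.01, 0.34 and 0.07 over 3 probe sets and did not pass in either fit.

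Slc37a4 carries glucose 6-phosphate into the endoplasmic reticulum. Slc37a4 read 622.7 and 787.4 untreated, 763.4 and 850.4 with adeno, 364.1, 618.7 and 747.9 in hypoxic wild-type cells and 303.9, 519.0 and 657.4 in null cells. All hypoxic arrays lay below both adeno arrays, and those numbered 1 and 2 below all normoxic arrays. The difference was -0.56 (SE 0.25, limma adjusted p 0.336), or -0.78 (SE 0.13, limma adjusted p 0.00450) with the block, which held with each of the 10 arrays left out. By contrast Slc2a2, the main glucose carrier of the hepatocyte plasma membrane, read 769.9 to 1224.6 normoxic and 502.0 to 2203.7 hypoxic, with differences of 0.26 and, with the block, -0.13 (limma adjusted p 0.802 and 0.423).

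**Figure D3:**
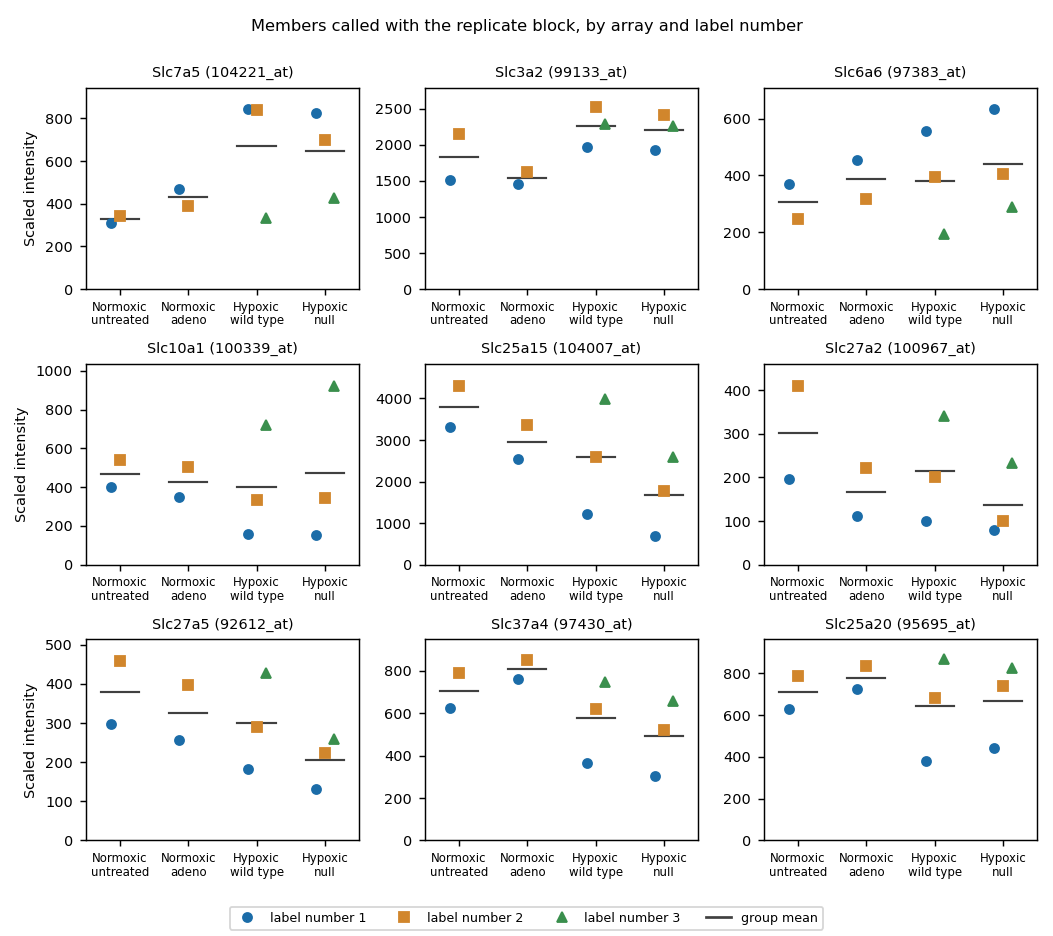
Scaled intensity (vertical axis, linear) of 9 members called with the replicate block, in the 4 groups, 1 point per array by label number, with bars at group means. For Slc10a1, Slc25a15, Slc27a2, Slc27a5, Slc37a4 and Slc25a20 the number 3 array (triangle) is the highest of each hypoxic group, and for Slc7a5 and Slc6a6 it is the lowest.

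The 10 probe sets of nucleotide sugar carriers and their relatives split 5 and 5, with a median of 0.00. With the block Slc35c2 was higher by 0.57 (limma adjusted p 0.0106), and Slc35e4 by 0.57 (0.0167). Slc35d1, which carries UDP-glucuronic acid into the endoplasmic reticulum, was lower by -0.53 (limma adjusted p 0.0181, and 0.0875 without the block). Both of its normoxic adeno arrays lay inside its hypoxic range, and only its untreated arrays lay above that range (values below, with the adeno comparison). The Slc35c2 call was lost without adeno 2 (0.0525). Slc35d1 lost it without untreated 2 (0.0818), adeno 2 (0.0803), wild type 2 (0.0566) or null 2 (0.0824), and Slc35e4 without untreated 1 (0.0643), untreated 2 (0.0508), adeno 2 (0.0751), wild type 2 (0.0614) or null 2 (0.0704).

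Of the remaining classes, the potassium and chloride cotransporter Slc12a4 was higher with the block by 0.44 (limma adjusted p 0.0261) and Slc22a18 of the organic ion class lower by -0.42 (0.0326). The Slc12a4 call was lost without untreated 1 (0.101), adeno 1 (0.0556), adeno 2 (0.105), wild type 1 (0.0514), wild type 2 (0.0687), null 1 (0.0623) or null 2 (0.0849). The Slc22a18 call was lost without untreated 1 (0.0913), untreated 2 (0.0957), adeno 2 (0.139), wild type 2 (0.105), null 1 (0.0739) or null 2 (0.123). No carrier of vitamins, choline, bicarbonate, nucleosides, monocarboxylates or protons passed in either fit of this comparison. The lactate carrier Slc16a1 differed by 0.17 and the nucleoside carrier Slc29a1 by 0.47 (limma adjusted p 0.734 and 0.340).

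Since no normoxic array has the number 3, the number 3 arrays do not move the estimate of this comparison with the block. Of the 22 calls with the block, 20 were also called when the number 3 arrays were left out, where 20 passed in all. Slc25a20 (limma adjusted p 0.0583) and Slc25a44 (0.0598) were the others. Leaving out each array in turn, 10 of the 22 calls held every time and 12 were lost at least once; the adeno number 2 array ended 12 of them, wild type number 2 ended 11, null number 2 10, untreated number 2 9 and untreated number 1 8. The 9 higher calls became 3 without adeno 2, 4 without wild type 2, 5 without untreated 1 or null 2, and 6 without untreated 2, and the 13 lower calls became 7 without untreated 2, adeno 2, wild type 2 or null 2. Without a model, 13 of 104 probe sets had all hypoxic arrays above the normoxic ones within number 1 and again within number 2, and 17 below, or 12.5 and 16.3 percent, against 10.7 and 11.1 percent of all tested.

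The carriers varied with the label number more often than other probe sets. Between number 3 and number 1, averaged over both hypoxic groups, 23 of 104 (22.1 percent) differed by at least 1 on the log2 scale, 18 of them higher on number 3, against 824 of 7453 (11.1 percent), 305 of them higher. These are counts, with no test. The highest were Slc10a1 (3.05 and 2.36), a Slc25a51 probe set (1.92), Slc25a15 (1.79), Slc25a47 (1.76), Slc3a1 (1.66), Slc2a2 (1.61), Slc27a2 (1.61) and Slc7a2 (1.47). The lowest were Slc44a2 (-1.40), Slc6a6 (-1.31), Slc7a5 (-1.14) and Slc38a10 (-1.09).

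Markers of cell types moved with the number and with hypoxia too. Between number 3 and number 1 the median was 0.32 for hepatocyte markers, -1.26 for stellate cell and fibroblast markers, -0.52 for macrophage, -1.16 for endothelial and -3.82 for biliary markers. Between hypoxic and normoxic arrays without the block, limma called 0 of 17 hepatocyte markers (median -0.31), 0 of 22 stellate and fibroblast markers (median 0.02), and 1 of 5 biliary (median 0.49) and 1 of 8 macrophage markers (median 0.10) higher. With the block, 8 of 17 hepatocyte marker probe sets were lower and 0 higher (median -0.41), 8 of 22 stellate and fibroblast markers were higher and 0 lower (median 0.41), and 3 of 5 biliary (median 1.47) and 2 of 8 macrophage markers (median 0.27) were higher. Their summed levels ranged, for hepatocyte markers, from 44543 to 65165 on normoxic and 41622 to 59810 on hypoxic arrays. For stellate and fibroblast markers they ranged from 12507 to 14352 normoxic and 7798 to 21364 hypoxic, and for biliary markers from 546 to 1347 and from 958 to 4328. In RNA of a whole culture, fewer cells of a type and less RNA per cell cannot be told apart. The part of these markers in the carrier differences was not tested.

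Promoter sequence is shown for some of the genes that the results turn on, the 250 bases before the annotated start. It is from RefSeq on GRCm38.p6, 5′ to 3′ on the gene's strand. Slc7a5, Slc39a6 and Slc27a5, also called with the block, were among the genes without a listed promoter. Capitals mark the letters ACGTG, or CACGT where they stand on the other strand. CACGTG, the palindrome known as an E-box, holds both and was counted as 1 match. Slc20a1 is shown because it rose without the block, at both of its annotated starts, chr2:129198523-129198772 (+) and chr2:129206846-129207095 (+).
Slc20a1 start 1: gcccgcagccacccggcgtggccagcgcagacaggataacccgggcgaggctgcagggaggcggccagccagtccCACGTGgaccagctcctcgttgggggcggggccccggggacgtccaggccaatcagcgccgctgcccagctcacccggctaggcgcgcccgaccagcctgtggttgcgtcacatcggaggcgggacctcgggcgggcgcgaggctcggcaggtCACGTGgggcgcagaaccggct
Slc20a1 start 2: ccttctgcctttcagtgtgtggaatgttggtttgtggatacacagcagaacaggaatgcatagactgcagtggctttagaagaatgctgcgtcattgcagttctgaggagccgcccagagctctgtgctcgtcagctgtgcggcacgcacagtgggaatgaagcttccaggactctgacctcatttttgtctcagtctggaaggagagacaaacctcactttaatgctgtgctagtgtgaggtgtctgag
Start 1 holds the letters at 175 and at 22 bases before the start, both inside CACGTG, and start 2 holds none. Slc31a1 at chr4:62360451-62360700 (+), the carrier that fell without the block, holds none.
Slc31a1: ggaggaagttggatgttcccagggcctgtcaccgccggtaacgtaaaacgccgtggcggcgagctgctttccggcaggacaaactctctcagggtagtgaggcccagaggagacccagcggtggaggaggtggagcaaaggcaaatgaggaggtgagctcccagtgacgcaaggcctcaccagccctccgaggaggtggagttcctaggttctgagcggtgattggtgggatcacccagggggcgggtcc
Slc3a2 at chr19:8713898-8714147 (-), the heavy chain of the neutral amino acid exchanger, holds 1 at 164 bases before the start.
Slc3a2: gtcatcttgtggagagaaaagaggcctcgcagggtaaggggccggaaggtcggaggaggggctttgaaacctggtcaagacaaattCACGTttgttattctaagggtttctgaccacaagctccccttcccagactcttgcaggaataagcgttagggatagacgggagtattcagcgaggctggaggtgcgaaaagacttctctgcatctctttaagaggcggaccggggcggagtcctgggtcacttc
Slc25a15 at chr8:22398278-22398527 (-) and Slc27a2 at chr2:126552774-126553023 (+), both lower with the block, hold 1 each, at 77 and 209 bases before the start; the one of Slc25a15 is inside CACGTG. The other listed start of Slc25a15 holds none, nor do the 2 listed starts of Slc10a1 and the 3 of Slc37a4, which were also lower with the block and are not printed.
Slc25a15: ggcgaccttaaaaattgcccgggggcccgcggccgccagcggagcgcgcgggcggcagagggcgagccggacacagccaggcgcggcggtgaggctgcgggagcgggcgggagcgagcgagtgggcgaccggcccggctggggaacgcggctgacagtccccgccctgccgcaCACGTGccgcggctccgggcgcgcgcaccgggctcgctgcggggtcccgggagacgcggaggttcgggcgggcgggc
Slc27a2: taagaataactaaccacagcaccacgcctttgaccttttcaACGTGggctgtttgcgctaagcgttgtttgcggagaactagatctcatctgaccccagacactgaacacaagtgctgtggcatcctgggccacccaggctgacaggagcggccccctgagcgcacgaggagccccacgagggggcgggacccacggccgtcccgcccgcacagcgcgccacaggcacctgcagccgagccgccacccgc

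The letters ACGTG stood in 21 of the 118 listed promoters of 78 carrier genes (17.8 percent) and in 5444 of 32851 promoters of all genes (16.6 percent). The letters TGATGNAA, the core bound by C/EBP and ATF factors in the amino acid response, stood on either strand of 4 of 118 (3.39 percent) and of 1134 of 32851 (3.45 percent). A match is a description of these letters and not a bound site, and the shares of carriers and of all genes were alike in size. Other forms of the HIF-1alpha core were not counted.

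Null cells were set against wild-type cells in hypoxia. With no normoxic null group, a genotype difference already present in normoxia cannot be told apart from a changed response to hypoxia. Whether the null cells received adeno is not stated either. The comparison therefore does not show which hypoxic differences need HIF-1alpha. No solute carrier passed in either direction, with limma without the block (0 of 104; 0 percent of all tested higher and 0 percent lower) or with it (0 of 104; 0.0134 percent higher and 0.0939 percent lower). At an unadjusted p under 0.05, limma had 3 of 104 higher and 0 lower without the block, against 130 and 129 of 7453, and 13 higher and 8 lower with it, against 351 and 342. The ranges of the 3 wild-type and 3 null arrays did not overlap for 4 of 104 probe sets upward and 2 downward (3.85 and 1.92 percent), against 4.03 and 2.75 percent of all tested. In all 3 same-number pairs, 24 of 104 were higher and 19 lower in null cells, against 1363 and 1071 of 7453. The median difference was 0.07, against 0.02 over all tested.

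The values of smallest p are given as values that did not pass, each at a limma adjusted p of 0.999 without the block. Slc25a17, a peroxisomal carrier of coenzyme A and nucleotides, read 432.4, 507.1 and 639.7 in wild-type and 708.5, 707.4 and 732.0 in null cells, a difference of 0.46 (SE 0.17; limma adjusted p 0.277 with the block). All null arrays lay above all wild-type arrays and inside the normoxic range of 703.5 to 878.4. The ascorbate carrier Slc23a2 read 99.7, 74.1 and 68.6 in wild-type and 116.4, 138.8 and 105.4 in null cells, a difference of 0.56 (SE 0.21; 0.364 with the block). The haem carrier Slc48a1 read 270.7, 258.7 and 204.5 in wild-type and 385.5, 366.6 and 277.0 in null cells, a difference of 0.48 (SE 0.19; 0.243 with the block). Both were separated between the genotypes, though the lowest null array of Slc48a1 (277.0) lay just above the highest wild-type array (270.7). The glucose carrier Slc2a8 was the only one of the 8 with a lower level in null cells, at 156.5, 184.4 and 163.9 against 229.3, 230.3 and 215.7, a difference of -0.41 (SE 0.19; 0.399 with the block). The creatine carrier Slc6a8 differed by 0.72, the basic amino acid carrier light chain Slc7a7 by 0.85, Slc12a7 by 0.39 and Slc39a6 by 0.55. Slc7a7 was dim and near the limit of the rule, at 11.9 to 84.6 over all arrays.

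**Figure D4:**
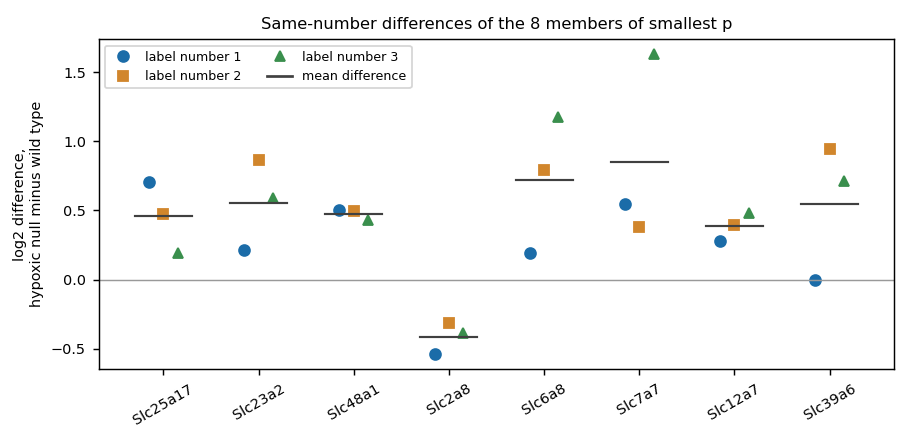
Differences between the null and the wild-type hypoxic array of the same label number (log2 scale, vertical axis) for the 8 solute carriers of smallest p, 1 point per number, with bars at the mean difference. Slc2a8 lies below 0 for all 3 numbers and 6 of the others lie above 0 for all 3, and no difference passed an adjusted p of 0.05.

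Against normoxic adeno cells, limma without the block called 0 of 104 carriers higher and 0 lower in hypoxic wild-type cells (0.322 and 0.0134 percent of all tested) and 1 higher and 0 lower in null cells (0.349 and 0.0939 percent). At an unadjusted p under 0.05 these were 10 higher and 6 lower in wild-type and 9 higher and 6 lower in null cells, where all tested had 338 and 257, and 386 and 342. With the block, 2 were higher and 1 lower in wild-type cells (1.48 and 0.725 percent of all tested), and 5 were higher and 6 lower in null cells (2.94 and 2.87 percent). Both comparisons share the adeno arrays, and a carrier called in one and not in the other is not thereby shown to differ. In wild-type cells 14 of 104 probe sets lay wholly above and 13 wholly below the adeno arrays, against 11.7 and 13.1 percent of all tested, and in null cells 15 and 11, against 13.8 and 12.1 percent.

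The calls with the block in wild-type cells were Slc20a1, Slc7a5 and, lower, Slc10a1. In null cells those higher were Slc20a1, Slc39a6, Slc7a5, Slc3a2 and Slc23a2, and those lower were both Slc10a1 member probe sets, Slc25a15, Slc27a2, Slc27a5 and Slc37a4. None of these 14 calls held with every array left out. Leaving out the number 3 arrays left 2 of the 3 wild-type calls and 6 of the 11 null calls. Slc23a2 gave 0.82 in null cells (limma adjusted p 0.275; with the block 0.91 and 0.0485) and Slc3a2 0.51 (0.415; with the block 0.49 and 0.0421). Slc23a2 and Slc3a2 lost these calls whichever of the 5 arrays was left out (0.0724 to 0.271 and 0.0805 to 0.330), as did Slc10a1 100341_g_at (-1.34 with the block, 0.0349; 0.0718 to 0.208). Slc37a4 gave -0.77 in null cells and passed with the block (limma adjusted p 0.0117), except without adeno 1 (0.105). Slc27a5 gave -0.68, or -0.93 (limma adjusted p 0.0100) with the block, which was lost without adeno 1 (0.0783) or adeno 2 (0.0999). Slc27a2 gave -0.35, or -0.78 with the block, where it passed by less than rounding shows; the call was kept only without null 1 (limma adjusted p 0.0339). The Slc20a1 call of wild-type cells was lost without adeno 2 (0.224), wild type 1 (0.0806) or wild type 2 (0.111).

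Side by side, in values that did not pass, Slc35e1 104475_at differed by -0.88 in wild-type and -0.58 in null cells, the dicarboxylate carrier Slc25a10 by -0.82 and -0.74, and the bicarbonate carrier Slc4a4 by 1.07 and 0.64. Slc48a1 differed by -0.68 and -0.20, and the urate carrier Slc22a12 by 0.97 and 1.33. The second probe set of Slc35e1, 161355_f_at, gave 0.16 and 0.19, against the direction of the first. Over the 11 genes with 2 probe sets, both had the same sign for 7 in the comparison over all 4 groups and for 5 in wild-type cells.

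Adeno treatment was compared with no treatment in normoxic cells, 2 arrays against 2. No carrier passed with limma without or with the block (0 of 104 in each direction), where all tested had 0 percent without it and 0.107 percent higher and 0.134 percent lower with it. At an unadjusted p under 0.05 limma had 4 of 104 higher and 6 lower, against 309 and 310 of 7453, and with the block 6 and 11, against 640 and 696. No overlap was seen for 25 of 104 probe sets upward and 26 downward, against 24.6 and 24.4 percent of all tested.

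Slc35d1 read 512.9 and 497.0 untreated and 290.6 and 276.2 with adeno, a difference of -0.82 (SE 0.20, limma adjusted p 0.494). The 6 hypoxic arrays read 205.8 to 297.8, so both untreated arrays stood above all 8 others. The zinc carrier Slc39a1 had a like order, with 626.9 and 699.2 untreated against 379.6 to 549.1 on the other 8 arrays, and a difference of -0.66 (SE 0.22, limma adjusted p 0.506). Slc25a10 read 263.8 and 283.8 untreated, 484.6 and 547.9 with adeno and 199.8 to 366.4 hypoxic, a difference of 0.90 (SE 0.28, limma adjusted p 0.494), and both adeno arrays were the highest. Slc48a1 read 279.8 and 239.3 untreated and 364.6 and 421.7 with adeno, a difference of 0.59 (SE 0.23, limma adjusted p 0.558).

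**Figure D5:**
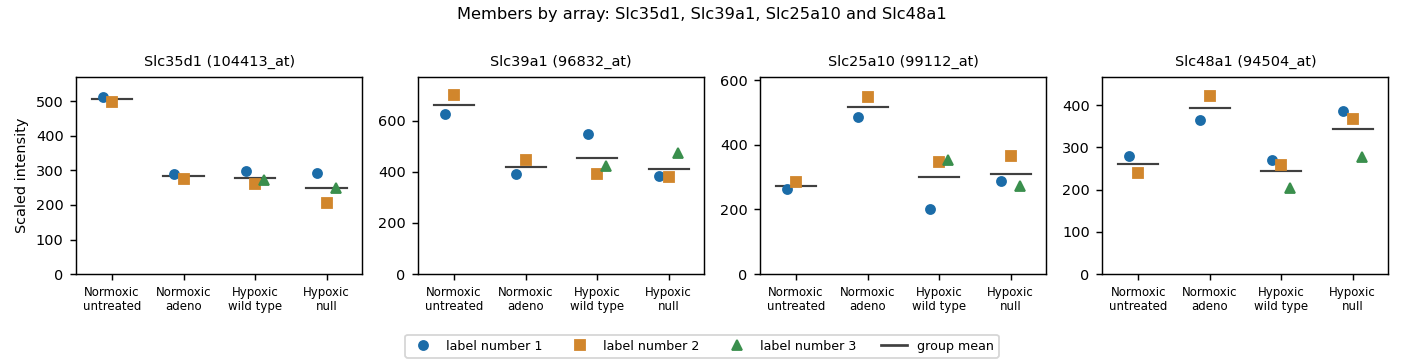
Scaled intensity (vertical axis, linear) of Slc35d1, Slc39a1, Slc25a10 and Slc48a1 in the 4 groups, 1 point per array by label number, with bars at group means. The untreated arrays are the highest for Slc35d1 and Slc39a1 and the adeno arrays for Slc25a10, and none of these differences between untreated and adeno arrays passed an adjusted p of 0.05.

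Other membrane transport genes, a list of 50 organic anion and ABC transporters, ion pumps, aquaporins, carrier partners and receptors, had 20 probe sets tested. Without the block the median difference between hypoxic and normoxic arrays was -0.04, and no probe set passed (smallest limma adjusted p 0.141, for Aqp8). With the block, the aquaporin Aqp8 was higher by 0.88 (limma adjusted p 0.0188). The peroxisomal fatty acid transporter Abcd3 was lower by -0.91 (limma adjusted p 0.00107), the export pump Abcg2 by -0.45 (0.0466), and 1 of 2 probe sets of the cholesterol exporter Abca1 by -0.63 (0.0410), while the other gave 0.41 (0.270).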

How the data were processed

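Total RNA of 10 hepatocyte samples was measured on oligonucleotide arrays. The authors deposited linear intensity values that had been scaled per array; the software and settings that made them from the scans are unstated here. Symbols came from a platform table (10855 probe sets with 1 symbol, 396 with several, 1237 with none), and all 104 member gene IDs matched GRCm38.p6, used for names and promoters. Probe sets with f, r, i or g in the name (12 members) may hybridise with related transcripts. The members and lists were chosen with earlier results of these data known, and classes follow family number.

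After adding 4.7 (the 10th percentile of all values), log2 was taken. Control probe sets (66) and those with a mean under 40.1 (the 40th percentile) were left out, which left 7453, among them all 104 members. limma 3.58.1 in R 4.3.3 fitted the 4 group means on all 10 arrays (eBayes, trend on intensity, residual df 6, or 4 with the block). The fit without the block was run on simulated data with independent noise per array. These data hold no label-number effect, so they check neither that effect nor the block. The number of arrays limits the precision. Alternatives were other offsets, filters and scalings, no trend, the block, and arrays left out.

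The label numbers were taken as pairing the arrays: all 13 same-number pairs of deviations from group means correlated above 0.1 (lowest 0.103). Among hypoxic arrays these were 0.541 to 0.677, against -0.514 to -0.156 for different numbers. Where a normoxic array took part, different numbers gave -0.378 to 0.253. Deviations sum to 0 within a group, so the pairs are not independent of one another. Normoxic number 2 arrays correlated at 0.154 to 0.253 with hypoxic number 3 arrays, against 0.103 to 0.173 with hypoxic number 2 arrays. Named are members past the threshold, those of smallest p per comparison and class, carriers chosen for their hepatocyte role, and members next to the limit. Of the chosen carriers Slc7a11 was too dim (mean 14.2), and Slc16a3, Slc25a13, Slc39a14 and Slc40a1 were among those not analysed here. Other genes, among them Slc44a2, Slc38a10, Slc25a47 and Slc3a1, were chosen after their values were seen.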

Additional observations from a re-analysis of the deposited data

How the results depend on the processing

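Counts of carriers called are given here as higher and lower. Over all 4 groups, 1 and 1 became 9 and 13 with the replicate block, 9 and 11 with the block and no number 3 arrays, and 2 higher without the number 3 arrays. In null against normoxic adeno cells, 1 and 0 became 5 and 6 with the replicate block and 3 and 3 with the block and no number 3 arrays, and 0 higher with median centring, no filter, no intensity trend or no number 3 arrays (for Slc20a1, limma adjusted p 0.0721, 0.0576, 0.0633 and 0.0559). In wild-type against normoxic adeno cells, 0 and 0 became 2 and 1 with the replicate block and 2 higher with the block and no number 3 arrays. With each array left out, without the block, higher calls were 0 to 3 over all 4 groups and 0 in both adeno comparisons, and lower calls 0 to 1 over all 4 groups and 0 in the others. With the block they were 3 to 10 (3, 4, 5, 6, 8, 9 and 10) and 7 to 11 (7, 9 and 11) over all 4 groups, 0 to 3 and 0 to 4 in null, and 0 to 2 and 0 to 1 in wild-type cells. Null against wild type and adeno against untreated had 0 calls under every alternative run. The replicate block changed no other call than those given with the results. The filter by mean log2 value and the block with each array left out were chosen after seeing the data. Over named members, 4119 values kept direction and side of the threshold, 193 passed it only under the alternative, 18 no longer passed it, 423 changed sign without passing in either setting, and 0 changed direction while called. With 2 or 3 arrays a group, and none normoxic and null, small differences were not detectable; why calls changed with a setting was not tested.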
